A study of Mus musculus with 7 samples.

Results

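In frozen mouse liver, 2 endonucleases, Benzonase and Cyanase, marked a set of regions touching gene exons. DNase I on nuclei from fresh liver had no hotspot in these regions, though it could have one elsewhere in the same exon, as in exon 10 of Rxra. Hotspots are stretches of the genome where cleavage tags cluster above background. Regions were made by merging the hotspots of the 3 nucleases on chromosomes 1 to 19 wherever they overlapped by at least 1 bp. The exonic Benzonase-Cyanase regions were then selected on the hotspots themselves: each had to hold a hotspot of both enzymes and none of DNase I. In addition each lay more than 1 kb from the transcription start site (TSS) of any protein-coding transcript and overlapped an exon of one. There were 1048 of them among 90879 merged regions, or 1.15% (95% Wilson interval 1.09 to 1.22), and 588 when the midpoint of the region had to lie in an exon. Of all 9207 regions with Benzonase and Cyanase but no DNase I hotspot, 2370 lay within 1 kb of a TSS, 5789 touched no exon of a protein-coding transcript, and the 1048 exonic ones made up 11.4% (interval 10.7 to 12.05).

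The study asked whether accessible chromatin can be mapped from frozen tissue without isolating nuclei. All samples came from liver of male C57BL/6 mice of 8 weeks, and the labels name no other treatment. Benzonase was applied to pulverized frozen liver, labelled as intact tissue, at 0.25, 1 and 4 U with 1 sample at each amount, Cyanase likewise, and DNase I was applied to nuclei purified from fresh liver, labelled as 1 sample although the header of its list names 2 pooled libraries. The authors made 1 hotspot list per nuclease from pooled tags, with 59040 Benzonase, 55904 Cyanase and 69897 DNase I hotspots on these chromosomes. The lists give positions and no tag number, so the depth behind a hotspot is unknown here, there is no spread between replicates, and no test across animals could be made. The 95% Wilson intervals given with shares cover counting error only. The nuclease, the state of the tissue (frozen or fresh) and the material digested (whole tissue or purified nuclei) changed together and cannot be told apart.

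Endonucleases cut DNA where nucleosomes and other proteins leave it exposed, and clusters of cuts mark promoters, enhancers and other open sites. Exons are in general richer in G and C than the introns between them, and nucleosomes are often found over them. DNase I has long been the standard enzyme for such maps in isolated nuclei. Hepatocytes, the main cells of the liver, make plasma proteins, break down amino acids and handle lipids and sugars.

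The tissue label was checked at the start sites of marker genes. All 6 hepatocyte markers (Alb, Ttr, Apoa1, Serpina1a, Tat and Cps1) had a TSS inside a hotspot of each nuclease. Among 5 Kupffer cell markers, 4 had a TSS in a DNase I hotspot, 1 in a Cyanase hotspot and 0 in a Benzonase hotspot. Of 4 sinusoidal endothelium markers, 1 was marked by Benzonase and Cyanase (Kdr) and 0 by DNase I, and of 4 stellate cell markers, 2 were marked by Benzonase, 3 by Cyanase and 0 by DNase I. Of 4 bile duct markers, 2 were marked by Benzonase, 1 by Cyanase and 1 by DNase I, and only Sox9 was marked by all 3. What part these other cell types had in the exonic regions was not tested.

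Of 7 genes on the liver lists that held both kinds of exonic region, 3 are shown so that the sequences can be read side by side within the same gene. They were taken from those whose windows hold no UTR, after their values were seen. The central 150 bp of a Benzonase-Cyanase region and of a region found by DNase I alone are printed for each, from the NCBIM37 genome (mm9), 5′ to 3′ on the strand of the gene, with coding exon bases in capitals and introns in lower case. Ahsg encodes the plasma protein fetuin-A (plus strand). There the windows were chr16:22894399-22894548 in exon 2 of 7, with 58.7% GC and 3 CpG, and chr16:22896707-22896856 beside exon 5, with 37.3% GC and 0 CpG. For C4b, a complement component on the minus strand, they were chr17:34866343-34866492 in exon 38 of 41, with 60% GC and 7 CpG, and chr17:34871220-34871369 in exon 24, with 53.3% GC and 0 CpG. For Lpin2, a phosphatidate phosphatase gene on the plus strand, they were chr17:71574593-71574742 in the intron beside exon 4 of 20, with 57.3% GC and 4 CpG, and chr17:71571455-71571604 in exon 3, with 37.3% GC and 0 CpG. In the same order, coding bases numbered 110 and 0 in the Ahsg windows, 99 and 59 in C4b and 0 and 36 in Lpin2. The windows of a pair thus differ in exon and intron content too. Over the whole regions the GC contrast was smaller, at 54.7% and 47.2% GC in Ahsg, 59.9% and 55.1% in C4b, and 49.8% and 39.6% in Lpin2. Of the genes not shown, Rxra had 56.8% and 54.8%, and the regions shared by Nr2f6 and Ocel1 had 59.1% and 58.2%. The median difference over the 7 genes was 7.497 percentage points.
Ahsg Benzonase-Cyanase, exon 2: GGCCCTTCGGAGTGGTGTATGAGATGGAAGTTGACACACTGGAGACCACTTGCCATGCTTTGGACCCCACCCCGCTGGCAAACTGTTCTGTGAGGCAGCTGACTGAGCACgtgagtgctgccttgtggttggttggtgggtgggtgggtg
Ahsg DNase I alone, beside exon 5: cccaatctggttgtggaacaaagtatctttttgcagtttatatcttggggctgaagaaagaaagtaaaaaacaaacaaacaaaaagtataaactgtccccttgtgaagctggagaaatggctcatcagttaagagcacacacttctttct
C4b Benzonase-Cyanase, exon 38: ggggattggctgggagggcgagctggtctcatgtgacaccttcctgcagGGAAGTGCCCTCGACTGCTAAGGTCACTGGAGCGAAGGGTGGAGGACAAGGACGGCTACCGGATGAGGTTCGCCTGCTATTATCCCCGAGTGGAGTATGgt
C4b DNase I alone, exon 24: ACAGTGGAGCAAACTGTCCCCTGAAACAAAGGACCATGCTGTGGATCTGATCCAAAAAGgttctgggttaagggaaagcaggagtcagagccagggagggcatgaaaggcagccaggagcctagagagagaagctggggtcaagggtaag
Lpin2 Benzonase-Cyanase, beside exon 4: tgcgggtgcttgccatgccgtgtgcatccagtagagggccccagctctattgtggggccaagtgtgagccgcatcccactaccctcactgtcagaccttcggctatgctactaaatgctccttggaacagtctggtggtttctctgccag
Lpin2 DNase I alone, exon 3: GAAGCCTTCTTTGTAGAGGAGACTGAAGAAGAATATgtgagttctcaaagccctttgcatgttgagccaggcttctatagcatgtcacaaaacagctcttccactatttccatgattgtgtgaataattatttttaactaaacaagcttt

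Windows from 3 more genes give examples of coding exons in the exonic Benzonase-Cyanase regions. They do not span the range of these regions, whose central 150 bp ran from 36% to 82.7% GC (quartiles 55.3% and 63.3%). Lpin1, a phosphatidate phosphatase gene on the minus strand, is shown as a liver enzyme with several regions, and its window in exon 10 of 21, chr12:16570439-16570588, had 62.7% GC and 6 CpG. Alb, which encodes serum albumin, lies in GC-poor surroundings, and its window in exon 8 of 15, chr5:90897555-90897704, had 50% GC and 1 CpG. Pcdh17, a protocadherin that mediates cell adhesion, is shown for its many CpG, and its window in exon 1 of 4, chr14:84846839-84846988, had 59.3% GC and 13 CpG. Alb and Pcdh17 are on the plus strand, and all 3 windows are wholly coding.
Lpin1 exon 10: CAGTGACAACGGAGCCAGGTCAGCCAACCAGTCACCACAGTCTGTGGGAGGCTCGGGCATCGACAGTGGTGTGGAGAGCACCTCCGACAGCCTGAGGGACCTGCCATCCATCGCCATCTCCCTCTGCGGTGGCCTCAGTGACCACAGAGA
Alb exon 8: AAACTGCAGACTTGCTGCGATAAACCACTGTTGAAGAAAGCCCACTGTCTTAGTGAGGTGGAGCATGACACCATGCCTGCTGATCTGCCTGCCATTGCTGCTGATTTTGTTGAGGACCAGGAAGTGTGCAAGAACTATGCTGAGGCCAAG
Pcdh17 exon 1: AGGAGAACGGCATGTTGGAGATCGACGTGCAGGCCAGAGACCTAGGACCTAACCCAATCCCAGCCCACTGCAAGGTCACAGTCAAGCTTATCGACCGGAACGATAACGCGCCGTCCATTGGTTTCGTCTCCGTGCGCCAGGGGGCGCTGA

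The exonic Benzonase-Cyanase regions were simply built, and narrower than exonic regions of all 3 nucleases. Their median width was 624.5 bp (quartiles 536 and 765 bp, range 266 to 3479 bp). In 1017 of 1048 regions (97.0%, interval 95.8 to 97.9) there was exactly 1 hotspot of each enzyme. The hotspots of both enzymes shared a median of 78.1% of the bases that either covered (quartiles 63.0% and 89.0%). Benzonase covered more bases than Cyanase in 604 regions (57.6%, interval 54.6 to 60.6). Exonic regions of all 3 nucleases were wider, with a median of 880 bp. Merging the hotspots of a further list can only widen a region, so this comparison is not independent of the rule. The median width was 580 bp in exonic regions of DNase I alone and 594 bp in Benzonase-Cyanase regions without an exon.

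Several regions sat close to the limits of the rule that selected them. In Fam84a a region at 993 bp from a TSS was left out. A region at Fam105b (chr15:27549378-27549924) overlapped an exon by 1 bp, whereas one at Triobp (chr15:78809182-78809825) ended at the edge of an exon with 0 bp between them and was not counted as exonic. Altogether 18 regions had 10 or fewer exonic bp and 57 had 50 or fewer. Absence of DNase I was also a matter of distance: at D10Jhu81e the nearest DNase I hotspot was 2 bp away, and 9 regions had one within 50 bp. On the other side of that limit, a region at Dcaf6 with all 3 nucleases shared 33 bp with its DNase I hotspot. The median gap to the nearest DNase I hotspot was 4389 bp (quartiles 1344 and 13189 bp), and 206 regions (19.7%, interval 17.4 to 22.2) had one within 1 kb.

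Most regions overlapped coding sequence. Coding sequence was overlapped by 924 of 1048 regions (88.2%, interval 86.1 to 90.0), and 662 (63.2%, interval 60.2 to 66.0) overlapped coding sequence and no UTR. A 3′ UTR was touched by 315 regions (30.1%), of which 117 held no coding sequence, and a 5′ UTR by 76 (7.25%). Coding sequence was touched by 83.1% (interval 81.6 to 84.5) of exonic regions of all 3 nucleases and by 70.7% (interval 68.3 to 73.1) of those of DNase I alone. The interval for the Benzonase-Cyanase regions overlapped neither. Conversely, a 3′ UTR with no coding sequence was found in 11.2% (interval 9.40 to 13.2) of the Benzonase-Cyanase regions and in 27.3% (interval 25.01 to 29.7) of the DNase I regions. Of the exon bases inside the Benzonase-Cyanase regions, 71.7% were coding, against 56.6% of the exon bases of 1 transcript per gene that lay over 1 kb from every TSS.

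A last exon was touched by 419 regions (39.98%, interval 37.1 to 43.0), near the 36.7% and 38.5% of exonic regions with all 3 nucleases and with DNase I alone. Last exons also held 54.2% of the exon bases in the regions and 53.9% of all exon bases over 1 kb from a TSS. The centre of the region lay past the midpoint of the transcript in 800 regions (76.3%, interval 73.7 to 78.8), against 73.8% with all 3 nucleases and 75.7% with DNase I alone. Median distance to the nearest TSS was 8438.5 bp. A single exon of the transcript was touched in 820 regions, and 228 (21.8%, interval 19.4 to 24.4) touched 2 or more, against 16.97% with all 3 nucleases and 5.33% with DNase I alone. Exon bases made up a median of 40.3% of a region (quartiles 21.2% and 92.2%), against 20.8% with all 3 nucleases and 26.3% with DNase I alone.

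**Figure D1:**
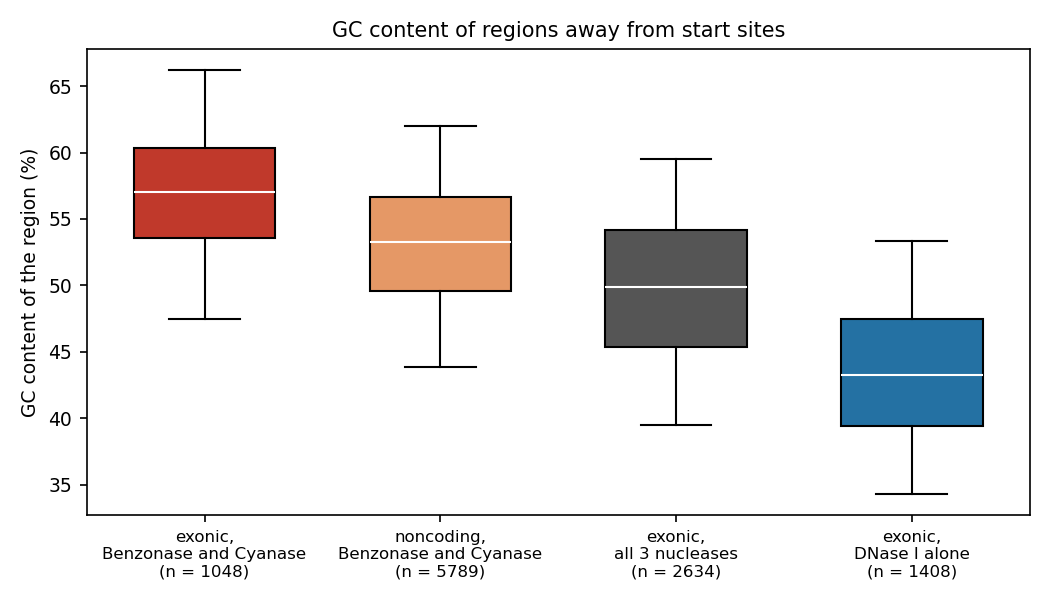
GC content (%) of regions over 1 kb from a protein-coding TSS, by kind; boxes are quartiles, white lines medians and whiskers the central 90 percent of regions. The exonic Benzonase-Cyanase regions have the highest median, 57.0%, and those of DNase I alone the lowest, 43.2%.

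In the box plot the exonic Benzonase-Cyanase regions had the highest median GC content of the 4 kinds, with a broad overlap with Benzonase-Cyanase regions that touch no exon. Their median GC content was 57.0% (quartiles 53.6% and 60.3%, range 34.5% to 76.3%), and the medians of single chromosomes ran from 54.7% on chromosome 3 to 58.8% on chromosome 8. Exonic regions of all 3 nucleases had a median of 49.8%, a difference of 7.14 percentage points that ran from 5.67 on chromosome 19 to 11.2 on chromosome 13. Exonic regions of DNase I alone had a median of 43.2%, a difference of 13.8 points (9.97 on chromosome 19 to 16.7 on chromosome 15). Against Benzonase-Cyanase regions with no exon, whose median was 53.3% (quartiles 49.6% and 56.6%), the difference was 3.72 points (2.35 on chromosome 2 to 5.35 on chromosome 8). All 3 differences were above 0 on each of the 19 chromosomes. Chromosomes are not replicates, and this range describes the lists only.

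The GC content was local. In 1002 of 1048 regions (95.6%, interval 94.2 to 96.7) it exceeded that of the 5 kb on each side, by a median of 6.83 percentage points. Among Benzonase-Cyanase regions without an exon the share was 93.5% (interval 92.8 to 94.1) and the median excess 6.62 points, among exonic regions of all 3 nucleases 75.7% (interval 74.0 to 77.3) and among those of DNase I alone 46.2% (interval 43.6 to 48.8). Flanks of the exonic Benzonase-Cyanase regions were themselves GC-rich, with a median of 49.7% against 43.5% around exonic DNase I regions.

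**Figure D2:**
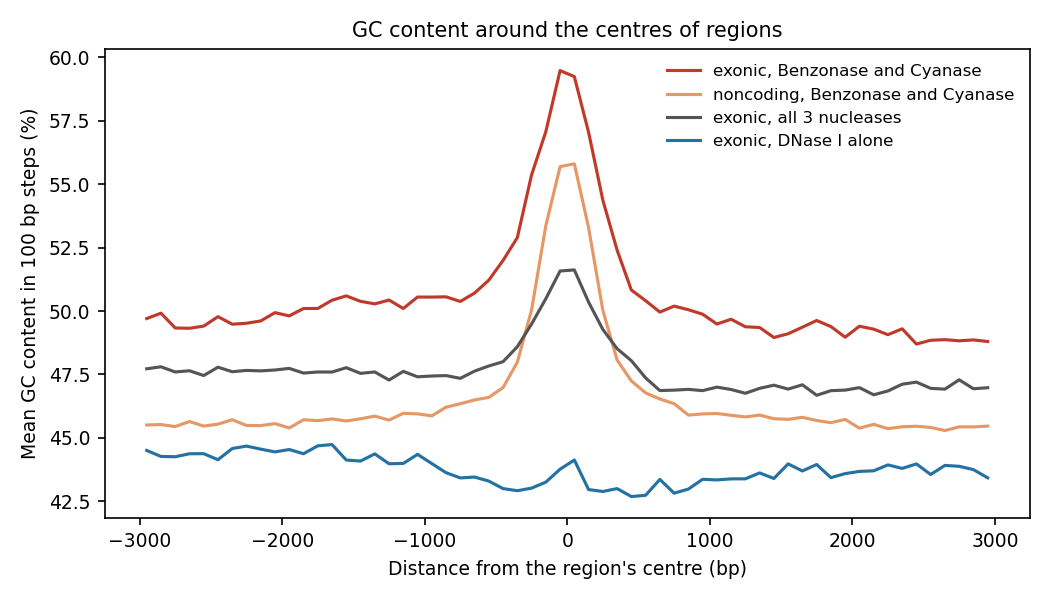
Mean GC content (%) in 100 bp steps against distance (bp) from the centre of regions, with exonic regions turned to the strand of their gene; each line is 1 kind of region. The exonic Benzonase-Cyanase regions peak at 59.5% in the 100 bp before the centre, and exonic DNase I regions are at 44.1% in the 100 bp after it.

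In the plot of GC content around region centres, the Benzonase-Cyanase regions with and without an exon had a narrow peak at the centre, exonic regions of all 3 nucleases had a lower one, and exonic regions of DNase I alone had a small rise that stayed below their own value at -2950 bp. Just before the centre, mean GC content was 59.5% for exonic Benzonase-Cyanase regions, 55.7% for those without an exon, 51.6% for exonic regions of all 3 nucleases and 43.8% for exonic regions of DNase I alone. At -2950 bp these 4 kinds were, in the same order, at 49.7%, 45.5%, 47.7% and 44.5%, so the rise to the centre was about as large in Benzonase-Cyanase regions without an exon as in those with one.

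Exon bases and the other bases of the regions both carried the high GC content. In the 589 regions with at least 100 bp of exon and 100 bp of other sequence, the exon bases had a median GC content of 58.6% and the other bases 55.6%, with exon bases higher in 422 regions (71.6%, interval 67.9 to 75.1). The touched exon was also GC-rich for its gene. Among 903 regions whose transcript had at least 2 further exons away from any TSS, it exceeded the median of those exons in 585 (64.8%, interval 61.6 to 67.8), by a median of 2.13 percentage points (quartiles -1.92 and 6.24).

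**Figure D3:**
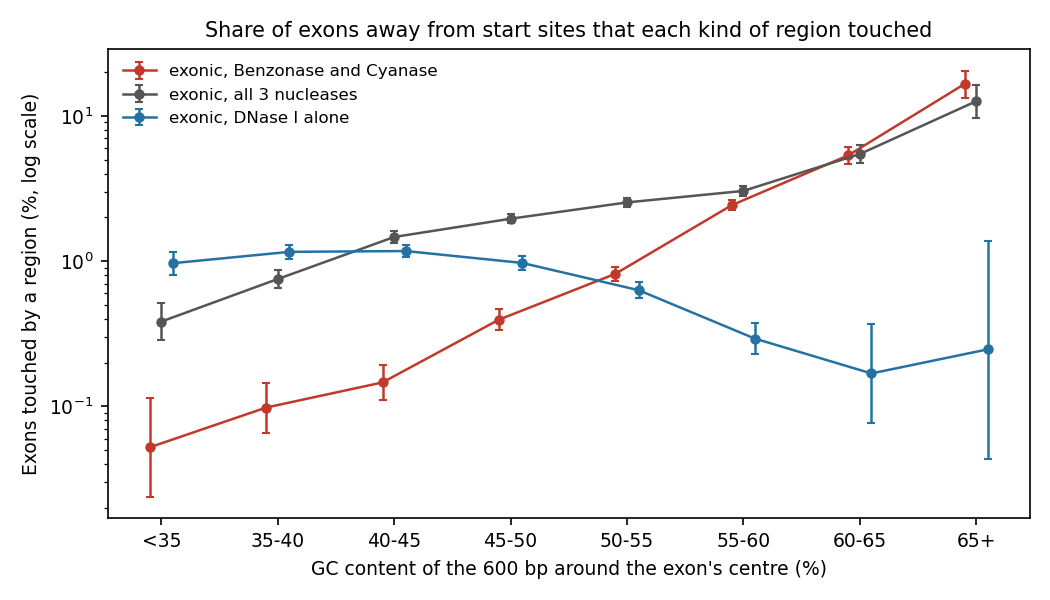
Share of exons over 1 kb from a TSS that a region touched (%, log scale, 95% Wilson intervals) against the GC content (%) of the 600 bp around the centre of the exon; each line is 1 kind of region. For exonic Benzonase-Cyanase regions the share goes from 0.0523% to 16.5%, and for DNase I alone it is highest at 1.17%, between 40% and 45% GC.

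Seen from the exons, the share touched climbed with GC content. There were 165798 separate exons with no base within 1 kb of a TSS, and the 600 bp around their centres had a median GC content of 46.8%. Exonic Benzonase-Cyanase regions touched 1306 of them, whose median was 56.3%. They touched 0.0523% (interval 0.0240 to 0.114) of exons under 35% GC, 0.395% of those between 45% and 50%, 2.42% between 55% and 60%, and 16.5% (interval 13.2 to 20.5) of the 405 exons at 65% or more. DNase I alone followed another course, from 0.967% under 35% to 1.17% between 40% and 45% and 0.292% (interval 0.230 to 0.372) between 55% and 60%. Regions of all 3 nucleases rose from 0.383% to 12.6% over the same range.

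CpG content was higher as well, though most regions were no CpG islands. A CpG island, here a stretch of at least 200 bp with over 50% GC and a ratio of observed to expected CpG over 0.6, was overlapped by 181 of 1048 regions (17.3%, interval 15.1 to 19.7). With islands of at least 500 bp, over 55% GC and a ratio over 0.65, the share was 8.68%. By the first definition the same held for 7.06% (interval 6.14 to 8.10) of exonic regions of all 3 nucleases, 0.284% (interval 0.111 to 0.728) of those of DNase I alone and 5.77% (interval 5.20 to 6.40) of Benzonase-Cyanase regions without an exon. The median ratio of observed to expected CpG was 0.302 in the exonic Benzonase-Cyanase regions, 0.251 and 0.228 in the exonic regions of all 3 nucleases and of DNase I alone, and 0.197 in those without an exon.

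Short motifs were counted on both strands of the central 500 bp of each region. GGGCGG, the core of the GC box bound by Sp1, was present in 375 exonic Benzonase-Cyanase regions (35.8%, interval 32.9 to 38.7), against 20.5% of all merged regions, 17.5% of exonic regions of all 3 nucleases and 5.18% of those of DNase I alone. Among Benzonase-Cyanase regions without an exon the share with GGGCGG was 21.5% (interval 20.4 to 22.5). TGTTTAC, the forkhead motif of FOXA factors, was present in 52 (4.96%, interval 3.80 to 6.45), against 9.33% of all regions, 14.8% of exonic DNase I regions and 5.80% (interval 5.23 to 6.44) of Benzonase-Cyanase regions without an exon. CAAAGTCCA, a motif of HNF4A, the nuclear receptor that governs many hepatocyte genes, was found in 4 (0.382%, interval 0.149 to 0.977), against 1.96% of all regions and 0.691% (interval 0.508 to 0.939) of Benzonase-Cyanase regions without an exon. For these 2 motifs the intervals of Benzonase-Cyanase regions with and without an exon overlap. For CACGTG, the E-box, the share was 11.2% (interval 9.40 to 13.2), against 8.79% of all regions, 8.27% of Benzonase-Cyanase regions without an exon and 10.3% (interval 9.22 to 11.5) of exonic regions of all 3 nucleases, which overlaps it. These motifs differ in their own GC content, and what base composition alone gives was not tested.

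A TSS of a transcript of another class than protein coding lay within 1 kb of 167 regions (15.9%, interval 13.8 to 18.3), against 16.0% of exonic regions of all 3 nucleases, 9.30% (interval 7.90 to 10.9) of those of DNase I alone and 5.89% (interval 5.31 to 6.53) of Benzonase-Cyanase regions without an exon. Within 100 bp in place of 1 kb the share was 7.92%. The classes involved were mainly processed transcripts (77 regions) and retained introns (73 regions), followed by antisense transcripts (13), transcripts subject to nonsense-mediated decay (11), lincRNA (8) and smaller classes.

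At the level of genes, 942 of the 19429 protein-coding genes with exon bases over 1 kb from every TSS held at least 1 exonic Benzonase-Cyanase region, or 4.85% (interval 4.56 to 5.16). With the midpoint of the region in an exon the share was 2.83%. For exonic regions of all 3 nucleases this background was 11.2%, and for those of DNase I alone 6.58%. By chromosome the share ran from 3.003% on chromosome 3 to 6.29% on chromosome 18. A single region was found in 849 genes, and 93 genes held 2 or more. Both an exonic Benzonase-Cyanase region and an exonic region of DNase I alone were found in 71 genes, 7.54% of the genes with the first kind and 5.56% of those with the second. Within these genes the Benzonase-Cyanase regions had the higher GC content in 68 of 71, by a median of 8.84 percentage points.

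**Figure D4:**
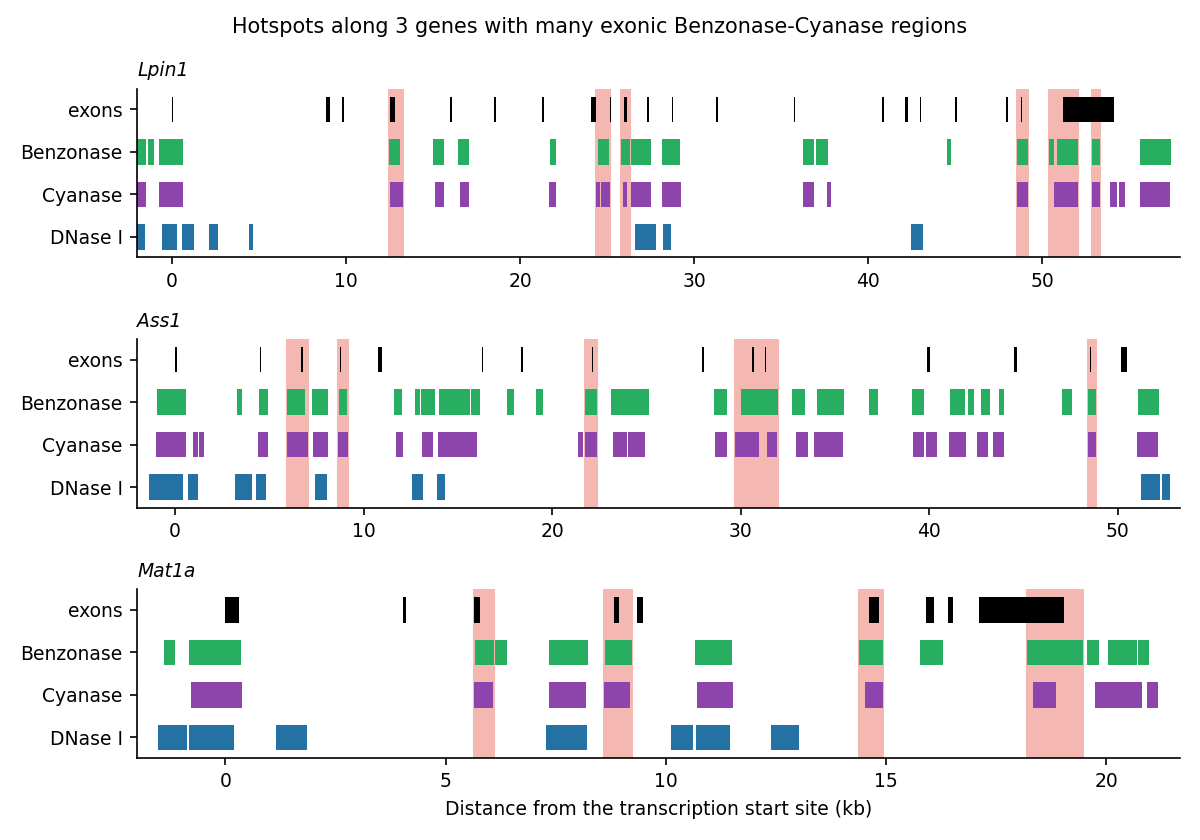
Exons (black) and hotspots of Benzonase (green), Cyanase (purple) and DNase I (blue) along 3 genes, against distance from the TSS (kb) in the direction of transcription; shaded spans are the exonic Benzonase-Cyanase regions. They number 6 in Lpin1, 5 in Ass1 and 4 in Mat1a.

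Metabolic genes of hepatocytes led the count, as the map of hotspots along genes shows. Lpin1 (ENSMUSG00000020593.7, minus strand, chr12:16542475-16596576) held 6 regions, the most of any gene, at exons 4, 8 and 9, 10, 20 and, at 2 places, 21 of 21. Their GC contents ran from 51.7% to 55.7%. The region at exons 8 and 9 was 825 bp wide and held only 54 exonic bp, so most of it was intron. The same gene also held 2 exonic regions of all 3 nucleases and 1 of DNase I alone.

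Ass1 (ENSMUSG00000076441.4, plus strand, chr2:31325727-31376192), the urea cycle enzyme that joins citrulline and aspartate, held 5 regions, at exons 3, 4, 8, 11 to 12 and 15 of 16. The region over exons 11 and 12 was 2315 bp wide with 59 CpG and 55.4% GC, and the nearest DNase I hotspot was 15369 bp away. At exon 3 that gap was 375 bp. Exon bases made up only 150 bp of the widest region, so most of its length was intron.

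Mat1a (ENSMUSG00000037798.6, chr14:41918670-41937701), which makes S-adenosylmethionine in liver, held 4 regions, at exons 3, 4, 6 and 9 of 9, with 46.5% to 49.9% GC. It held no exonic region of DNase I alone. Fmo5, a flavin monooxygenase, held 3 regions, at exon 7 and at 2 places in exon 9 of 9, the last with 44.5% GC, below the 45.8% of its flanks.

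Of the 16 genes with 3 regions, Fmo5 and the following have the largest summed width, and apart from Fmo5 these are not known as hepatocyte genes. Emilin2, an extracellular matrix glycoprotein, held 3 regions in its last exons, from exon 5 to exon 8 of 8, each at least 27739 bp from the nearest DNase I hotspot. Sh3pxd2a, a scaffold protein of podosomes, held 3 and Rap1gap, which inactivates the small GTPase Rap1, also 3, with up to 64.9% GC. Celf4, an RNA-binding protein of neurons, held 3 with 60.2% to 66.7% GC, and Pcdh17 held 3 over its first exon, all overlapping a CpG island. No TSS of Emilin2, Sh3pxd2a or Celf4 lay in a DNase I hotspot.

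The widest region, 3479 bp (chr14:15181129-15184607), covered exons 4 to 10 of 12 of Il3ra, a subunit of the interleukin 3 receptor, with 58.9% GC against 49.0% in the flanks. Next came the region of Ass1 and one of 2304 bp at the end of Cyp4a10, which hydroxylates fatty acids and has close relatives in the same gene cluster. Zfp36l1 (2009 bp), Hic1 (1875 bp) and Zfp503 (1845 bp) had wide regions over the last exon, each overlapping a CpG island. Rere (1849 bp at exon 12 of 23) also overlapped an island, while 1600014C10Rik, Emilin2 and Rgs16 did not.

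**Figure D5:**
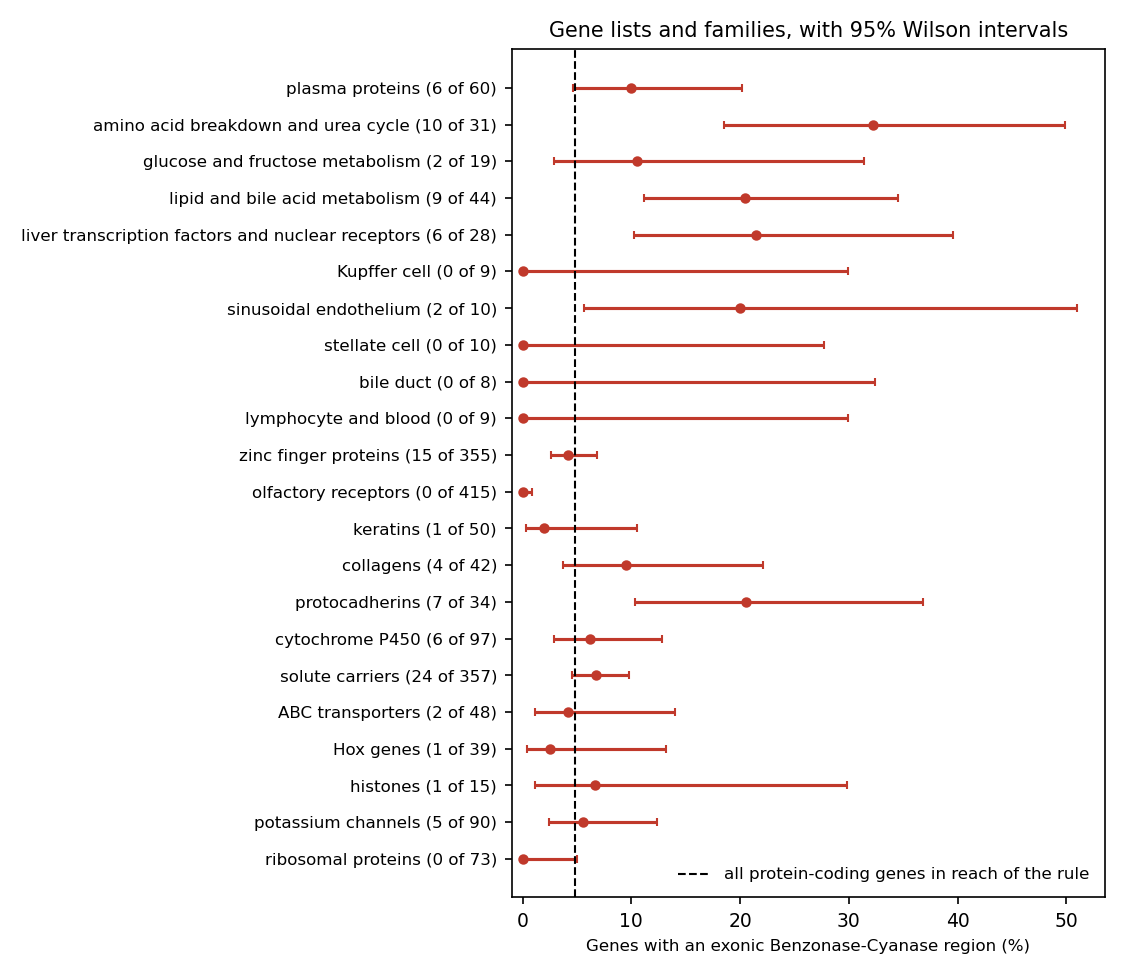
Share of genes (%) with an exonic Benzonase-Cyanase region in each list or family, with 95% Wilson intervals; the dashed line is the share of all protein-coding genes in reach of the rule, 4.85%. Amino acid breakdown and urea cycle genes have the highest share, 32.3%.

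The gene lists were chosen with earlier results of these data known, so their shares are descriptions only. Read against the background of 4.85%, genes of hepatocyte function often held a region. Of 182 genes on 5 lists of liver genes, 33 did (18.1%, interval 13.2 to 24.4), with 107 regions per megabase of exon in reach, against 19.99 for all genes. These genes also often held exonic regions of all 3 nucleases, 82 of 182 (45.1%), and of DNase I alone, 26 of 182 (14.3%), each also above its own background. Regions in these genes had a lower median GC content, 54.5% over 55 regions, than the other 993, at 57.3%. Only 1 of the 55 overlapped a CpG island, at Foxa2, against 180 of the others (18.1%).

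Amino acid breakdown and the urea cycle had the highest share, 10 of 31 genes (32.3%, interval 18.6 to 49.9). Besides Ass1 and Mat1a these were Tat and Tdo2, which open the breakdown of tyrosine and tryptophan, Hpd, also of the tyrosine path, Afmid of the tryptophan path, Hal for histidine, Sds for serine, Cbs for homocysteine, and Bhmt, which returns homocysteine to methionine, with 2 regions. The region of Tat (chr8:112518397-112519015) covered exon 6 of 12 and had 50.9% GC and 22 CpG. That of Sds, at exon 6 of 8, was only 312 bp wide and reached 61.5% GC. Tdo2 had 42.7% GC at exon 10 of 12, above the 36.8% of its flanks, and Hal had 48.2% at exons 4 to 6, below the 49.2% of its flanks.

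In lipid and bile acid metabolism 9 of 44 genes held a region (20.5%, interval 11.2 to 34.5). Among them were Lpin1, Lpin2 and Cyp4a10, together with fatty acid synthase (Fasn), the cholesterol regulator Srebf2, the triglyceride lipase Pnpla2 with 2 regions, Dgat2, which makes triglycerides, and the sterol exporter Abcg8 with 2. In Fasn, exons 12 to 13 of 43 lay in a Benzonase-Cyanase region with 58.8% GC, and a region of DNase I alone at exon 43 had 47.1%. Pnpla2 had 57.8% GC at exons 5 to 6 and 61.3% at exons 8 to 9 of 9.

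Among liver transcription factors and nuclear receptors 6 of 28 held a region (21.4%, interval 10.2 to 39.5), namely Hnf4a, Foxa2, Foxa3, Nr1i2, Rxra and Nr2f6. The regions of Foxa2 (63.1% GC) and Foxa3 (60.3% GC) lay wholly within exon 2 of 2, and that of Hnf4a at exon 9 of 10 had 53.3% GC. In Nr1i2, the xenobiotic receptor PXR, exons 3 to 4 of 9 were marked, 24944 bp from the nearest DNase I hotspot. Rxra, the shared partner of many nuclear receptors, was marked in its 3′ UTR. The region of Nr2f6 also lies in an exon of the neighbouring gene Ocel1, so it cannot be given to one of them.

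Plasma protein genes held a region in 6 of 60 cases (10%, interval 4.66 to 20.1), against 26 of 60 with an exonic region of all 3 nucleases. They were Alb, Trf (transferrin), Ahsg, the anticoagulant protease Proc, C4b and the lectin Mbl2. Alb had 3 regions, at exon 8, exon 9 and exons 11 to 12 of 15, with 43.9%, 41.9% and 41.5% GC, all over their flanks of at most 39.4%. In glucose and fructose metabolism 2 of 19 genes held a region (10.5%, interval 2.94 to 31.4), Fbp1 of gluconeogenesis and Pcx, pyruvate carboxylase, with 2 regions. The intervals of both lists include the background.

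Lists of other liver cell types were small. Sinusoidal endothelium had 2 of 10 genes (20%, interval 5.67 to 51.0), Flt1, a VEGF receptor with 2 regions at exons 15 and 19 of 30, and Fcgr2b, an antibody receptor. Kupffer cell genes had 0 of 9, stellate cell genes 0 of 10, bile duct genes 0 of 8, and lymphocyte and blood genes 0 of 9, with upper bounds between 27.8% and 32.4%. Lists of this size with a count of 0 cannot be told from the background.

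Among gene families, protocadherins and olfactory receptors had intervals that leave out 4.85%. Protocadherins, many with a single long coding exon, held a region in 7 of 34 genes (20.6%, interval 10.3 to 36.8), although only 4 of the 34 had a TSS in a DNase I hotspot. In that family 2 genes had an exonic region of all 3 nucleases and 2 of DNase I alone. Olfactory receptors had 0 of 415 (upper bound 0.917%), but all 415 together had only 118 kb of exon in reach of the rule. The 34 protocadherins had 152 kb, with 59.1 regions per megabase against 19.99 for all genes. Ribosomal proteins had 0 of 73 (upper bound 4.999%, which includes the background). Zinc finger proteins of the Zfp series (15 of 355, 4.23%), solute carriers (24 of 357, 6.72%), cytochrome P450 genes (6 of 97, 6.19%), potassium channels (5 of 90, 5.56%), ABC transporters (2 of 48, 4.17%), keratins (1 of 50, 2%), Hox genes (1 of 39, 2.56%) and histones (1 of 15, 6.67%) had intervals that include 4.85%. Collagens had 4 of 42 (9.52%, interval 3.77 to 22.1), which also includes it. These genes differ in length and exon number, which the shares do not take into account.

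Genes with an exonic Benzonase-Cyanase region had a DNase I hotspot at the TSS about as often as genes in general. Of the 942 genes with an exonic Benzonase-Cyanase region, 498 (52.9%, interval 49.7 to 56.0) had a TSS in a DNase I hotspot, against 52.0% (interval 51.3 to 52.7) of all 19429 genes. Genes with an exonic region of DNase I alone had 71.0% (interval 68.4 to 73.4) and those with one of all 3 nucleases 71.4% (interval 69.5 to 73.3). A TSS in a Benzonase hotspot was found in 73.1% (interval 70.2 to 75.9), against 62.8% of all genes, 81.8% of genes with an exonic region of DNase I alone and 83.8% of those with one of all 3 nucleases. The excess over all genes lay in genes with few exons, at 65.7% against 42.6% with 1 to 4 exons and 70.4% against 63.6% with 5 to 9. It was absent with 10 to 19 exons (76.4% against 77.6%) and with 20 or more (77.1% against 77.8%).

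The DNase I shares differed in opposite directions in genes with few and with many exons. Of genes with 1 to 4 exons, 50% (interval 42.5 to 57.5) of those with an exonic Benzonase-Cyanase region had a DNase I hotspot at a TSS, against 34.1% of all such genes. With 5 to 9 exons the shares were alike, at 54.2% (interval 47.8 to 60.4) and 54.3%. With 10 to 19 exons the shares were 55.9% (interval 50.4 to 61.3) and 65.1%, and with 20 or more they were 49.3% (interval 42.8 to 55.8) and 60.8%. Put the other way, of genes with 20 or more exons and no TSS in a DNase I hotspot, 12.3% (interval 10.3 to 14.5) held an exonic Benzonase-Cyanase region, against 7.69% (interval 6.42 to 9.19) of those with one. In the same order these shares were 2.18% (interval 1.76 to 2.70) and 4.23% (interval 3.42 to 5.21) with 1 to 4 exons. They were 3.92% and 3.89% with 5 to 9 exons, and 7.67% and 5.21% with 10 to 19.

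Regions in genes without a DNase I hotspot at a TSS were somewhat richer in CpG. The 485 regions in such genes had a median GC content of 57.9% and overlapped a CpG island in 23.3% (interval 19.8 to 27.3), while the 563 in genes with one had 56.6% and 12.1% (interval 9.64 to 15.0). For 253 regions, no TSS of the gene lay in a hotspot of any of the 3 lists, and 24.1% of these (interval 19.3 to 29.7) overlapped an island.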

How the data were processed

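Tags had been aligned to mm9 and pooled by nuclease by the authors, whose hotspots passed a false discovery rate of 0%, per the file headers. Each deposited list holds positions only, with no tag numbers, so the depth behind a hotspot is unknown here. The labels give 1 DNase I sample. Members and gene lists were chosen with earlier results of these data known. Python 3.11.15, numpy 2.4.6, scipy 1.17.1, numba 0.67.0 and matplotlib 3.10.9 were used with the NCBIM37 genome (mm9) and GENCODE M1. In the Cyanase list 2 hotspots ran past a chromosome end and were shortened for sequence content. Exon numbers follow the transcript of the gene with the longest coding sequence, or, where the region touches none of its exons, the one with most exonic bases in the region. CpG islands were sought as best-scoring segments, with a score of 17 per CpG and -1 per base outside one. The merging, overlaps, intervals and island search were tested on simulated data. Genes were named if among the 10 with most regions (ties by summed width) or the 10 widest regions, on a gene list, nearest a limit of the rule, or on a liver list with both kinds of exonic region. Printed coordinates count from 1. A symbol with several gene entries was counted once in a list. There were 0 columns of other samples. No p-values were computed. Alternatives changed the overlap, distances, exon rule, chromosomes, narrow hotspots, GC window, flanks, islands and TSS choice.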

Additional observations from a re-analysis of the deposited data

How the results depend on the processing

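For 12 results, 12 other settings gave 93 values, of which 69 stayed near the reported value and no difference changed sign. Near meant within the 95% interval for shares, within 1 SD over the chromosomes for GC medians and their differences, and within 1.5 times for the count of regions. Direct overlap of a Benzonase and a Cyanase hotspot, a further setting, already holds in each region by construction and is not counted here. With the midpoint of the region in an exon there were 588 regions in 2.83% of genes, median GC content was 58.4%, the differences to exonic DNase I regions and to regions without an exon were 16.0 and 4.90 percentage points, and 84.4% overlapped coding sequence, 54.6% touched a last exon, 22.4% overlapped a CpG island, 97.1% exceeded their flanks in GC and 13.1% lay near a TSS of another class. An overlap of 50% of both hotspots gave 5.29% of genes, 93.0% over their flanks and 56.4% of genes with a TSS in a DNase I hotspot. With no DNase I hotspot within 1 kb the shares of genes were 3.95% and 49.6%. Leaving out narrow hotspots gave 3.47% of genes, 20.5% on islands and 19.2% near another TSS. Leaving out regions within 2 kb of a TSS gave 4.15% of genes. The central 150 bp had a median GC content of 59.3%, flanks of 50 kb gave 97.4%, stricter islands of at least 500 bp gave 8.68%, the TSS farthest 5′ gave 48.2% and a distance of 100 bp gave 7.92%. The cause of these changes was not tested. The lists give no tags per hotspot, so how depth limits them was not tested.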
